A study of Mus musculus with 4 samples.

Results

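Heat shock proteins are chaperones, which bind unfolded proteins and help them fold or be degraded. The HSP70 proteins do so in cycles of ATP binding, J-domain proteins deliver clients to them and HSP110 proteins exchange their nucleotide, while HSP90 proteins act later on kinases, receptors and other partly folded clients. Under heat or other protein damage the transcription factor HSF1 switches on the inducible members, whose mRNAs continue to be translated when most translation falls. N6-methyladenosine (m6A) is the most common internal mark of mRNA and lies mostly near stop codons and in long exons, and in stressed cells m6A in the 5′ UTR of the inducible Hsp70 mRNA has been linked to translation that does not need the cap. The peaks on these mRNAs in brain from mice for which no stress is described are given here.

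The 10 genes were chosen by name: Hspa1a, Hspa1b, Hspa8 and Hspa5 of the HSP70 family, Hspa4l and Hsph1 of the HSP110 family, Hsp90aa1 and Hsp90ab1, the J-domain gene Dnajb1, and Hsf1. They are 10 of 21866 protein-coding genes in the mouse annotation (GENCODE M21, on mm10). Their peaks, those that touch at least 1 exonic base, were 28 of the 38533 peaks of replicate 1 and 23 of the 30134 peaks of replicate 2. The study sequenced 2 m6A immunoprecipitations (m6A IP) and 2 input libraries from whole brain of C57BL/6J mice aged 4 weeks, and the series describes these mice as Prrc2a flox/flox. All 4 samples therefore shared the floxed allele. The labels name no Cre driver, no heat or stress treatment and no number of mice per library, so the 2 m6A IP lists form 1 group and there was no second condition to compare. A peak is a stretch where fragments were enriched by the m6A antibody, and its Enrichment is the fold over input that the authors deposited. The lists hold no read counts, so depth is unknown, no counting error could be put on a single Enrichment, and a gene with little mRNA and a gene with little m6A cannot be told apart.

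Peaks of both lists with 1 bp or more in common count as shared, and the stretch they have in common is the shared interval. Shared intervals were ranked by the lower Enrichment of both replicates, and the strongest of a gene is the first by that rank. Over the whole lists 60.0% of the peaks of replicate 1 and 77.0% of those of replicate 2 were shared. All 13 markers of neurons, astrocytes, oligodendrocytes and microglia that were looked up had a shared peak, and of 4 markers of liver and red blood cells only Hbb-bs did.

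Shared peaks were found in 9 of the 10 genes, all but Hspa8, beside 45.4% of all protein-coding genes, many of which are not expressed in brain. Of the peaks of the 10 genes, 21 of 28 (75.0%) in replicate 1 and 21 of 23 (91.3%) in replicate 2 were shared. Over exons of all protein-coding genes these shares were 67.8% and 76.8%. Placed by its midpoint on the transcript with the longest coding sequence (CDS), a shared interval fell in the CDS in 8 of the 9 genes, where 68.0% of the genes with a shared peak have one. It fell in the 3′ UTR in 4 of 9 genes against 49.9%, and within 200 nt of the stop codon in 4 of 9 against 48.1%. This last count was 1 within 100 nt, against 28.6%, and 6 within 400 nt, against 67.7%. The 5′ UTR held the midpoint of a shared interval in 1 of 9, Hsph1, against 21.7% of genes with a shared peak. An interval over the stop codon occurred in 4 of 9 genes (Hspa1b, Hspa5, Hspa4l and Dnajb1) and in 51.4% of all, and one over the start codon in 2 of 9 (Hsph1 and Dnajb1) and 22.4%. With 9 genes, none of these counts was set against the genome with a test.

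**Figure D1:**
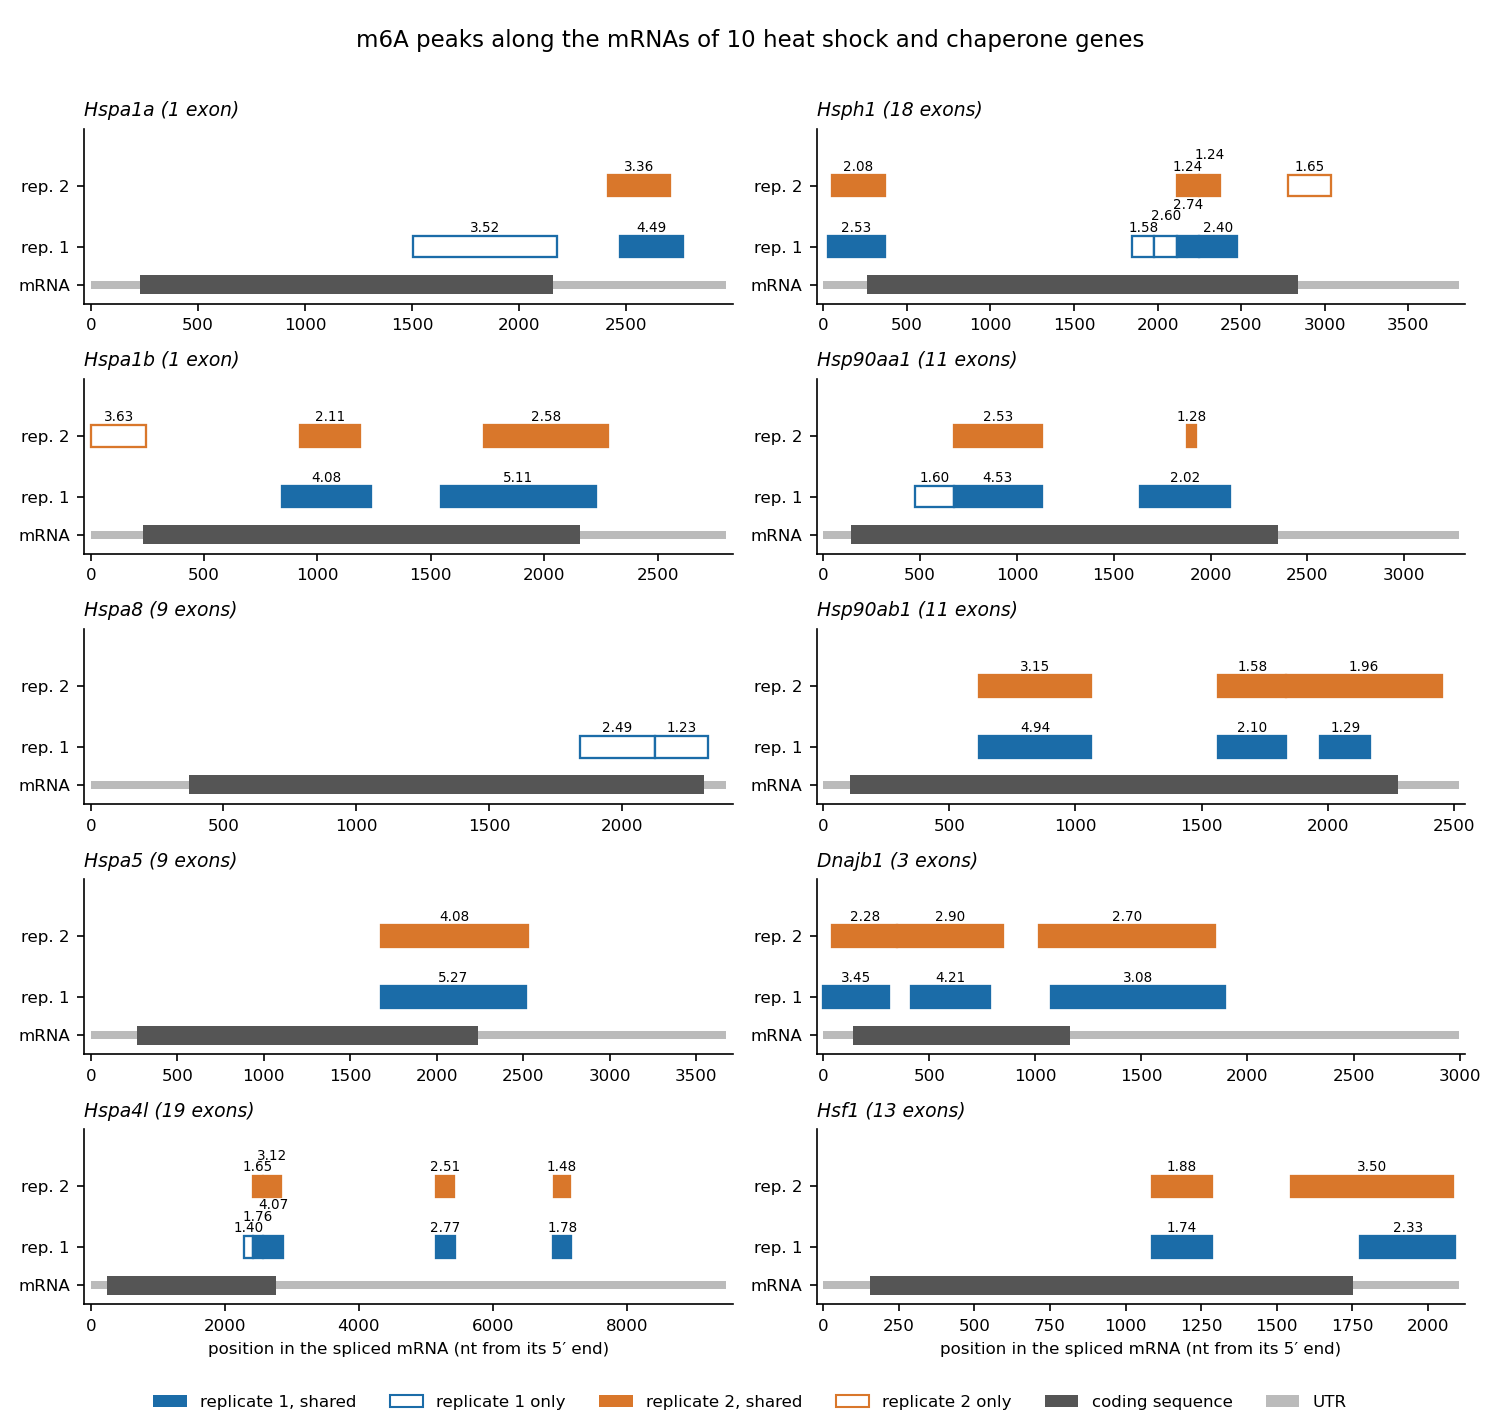
Peaks of both replicates along the spliced mRNA of each gene (x axis, nt from the 5′ end, a scale of its own per gene), with the Enrichment (fold over input) above each bar. Filled bars are shared and open bars were in 1 list; Hspa8 has only open bars, Hspa5 has 1 peak across its stop codon in both lists, and Hsph1, Dnajb1 and Hspa1b are the genes with bars at the 5′ end.

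The 5′ ends are taken first. A peak there was found in 3 genes, shared in Hsph1 and Dnajb1 and in replicate 2 alone in Hspa1b. Hsph1 encodes the cytosolic HSP110 chaperone Hsp105, which works with HSP70 to pull apart aggregates. Its first exon carried a peak with Enrichment 2.53 in replicate 1 and 2.08 in replicate 2, at chr5:149635970-149636286, which covered the start codon and, in both replicates, 80.2% of the 5′ UTR. Both values lay below the middle of their own lists, at percentiles 39.3 and 43.6. Dnajb1 encodes the J-domain protein Hsp40, the partner that delivers clients to HSP70. Its peak at the 5′ end had Enrichment 3.45 and 2.28, and the shared interval chr8:83608233-83608503 covered 71.2% of the 5′ UTR and the start codon. The midpoint was just inside the CDS, so that the count of genes with a 5′ UTR interval rises from 1 to 2 if any base counts. The sites that follow are the GGAC tetramers, part of the usual m6A consensus, closest to the midpoint of each of these shared intervals and the only one in the 5′ UTR of Hspa1b, in capitals with the T of GGACT where present and with 10 nt on either side (transcript strand, sequence of GRCm38, 5′ to 3′).
Hsph1, nt 219 of the mRNA, in the 5′ UTR, minus strand of chr5:149636110-149636130: cgggagcaGGACgagcacgca
Dnajb1, nt 150 of the mRNA, in the CDS, plus strand of chr8:83608332-83608352: atgggcaaGGACTactatcag
Hspa1b, nt 103 of the mRNA, in the 5′ UTR, minus strand of chr17:34959126-34959146: ctcggccaGGACcagccttcc
The sequence of Dnajb1 starts with its start codon. The peak of Hsph1 held 4 GGAC sites, none of them GGACT, and that of Dnajb1 held 4, of which the one printed is GGACT.

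Hspa1a and Hspa1b are neighbouring single-exon genes on chromosome 17 that encode the stress-inducible HSP70. The 5′ UTR of both is 231 nt long and 228 of these are the same, the differences being C26T, C125A and T126C (Hspa1a first, positions from the mRNA start, then Hspa1b). In Hspa1b, replicate 2 had a peak over nearly all of the 5′ UTR, chr17:34958993-34959236, with an Enrichment of 3.63 at percentile 91.7 of its list. Replicate 1 listed no peak there, and in Hspa1a neither replicate listed one. The adenosine at nt 103 lies in the same 21 nt in both genes. This peak was therefore seen in 1 of 2 replicates and at 1 of 2 near-identical 5′ UTRs.

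At the 3′ ends the pair differed as well. Hspa1a had 1 shared peak, in the 3′ UTR, with Enrichment 4.49 in replicate 1 and 3.36 in replicate 2, at percentiles 84.1 and 87.8 (shared interval chr17:34969454-34969685). Its second peak of replicate 1, across the stop codon with Enrichment 3.52, had no partner. In Hspa1b the shared peak lay across the stop codon, at 5.11 and 2.58, and a second one in the CDS had 4.08 and 2.11. Each of the 2 Hspa1b pairs was thus nearly 2 times as enriched in replicate 1, with ratios of 1.98 and 1.93. The 3′ UTRs, at 47.3% identity, are where the pair differ most, against 99.4% in the CDS. The exon of Hspa1a also overlaps Gm20481 on the other strand, and the TruSeq RNA kit that the labels name does not mark strand.

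Sequence shared between genes bears on these peaks, since per the methods only uniquely mapped reads were kept. Of all 101-nt windows of the mRNA, the read length, 48.4% in Hspa1a and 49.7% in Hspa1b occur again exactly elsewhere in the genome, most of them in each other. In the CDS this holds for 69.3% and 66.8% of windows, in the 5′ UTR for 30.4% of both, and in the 3′ UTR for 0%. The shared peak of Hspa1a thus lay wholly in sequence that is its own, while 40.8% and 41.1% of the windows under the stop codon peak of Hspa1b are found elsewhere. Under the 5′ UTR peak of Hspa1b in replicate 2 this share was 35.7%. Hspa8 and Hsp90aa1 had 63.6% and 60.1% of such windows, and the other 6 genes had 0%. Each window stands for an unpaired read and an exact match, whereas the methods describe paired-end reads. These percentages are therefore not shares of reads lost. How far lost or moved reads shaped these peaks was not tested.

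Hspa8 encodes Hsc70, the constitutive HSP70 of neurons, which also strips clathrin from vesicles. It was the only gene with no shared peak. Replicate 1 had a peak in the CDS with Enrichment 2.49 and one over the stop codon with 1.23, the second at percentile 0.490 of its list, and replicate 2 had none. Of the windows under these 2 peaks, 100% and 75.0% occur elsewhere, mostly in processed pseudogenes. One of these, Gm15459 on chromosome 5, which overlaps the lincRNA Gm26825, carried 3 peaks in replicate 2 and none in replicate 1. Their Enrichment was 3.73, 4.71 and 2.42, and by 31-nt matches they correspond to nt 1869 to 2154, 1009 to 1483 and 513 to 783 of the Hspa8 mRNA. The first of the 3 overlaps both peaks that replicate 1 listed in Hspa8 itself. The list with Hspa8 peaks had none at this copy, and the list with peaks at the copy had none in Hspa8.

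**Figure D2:**
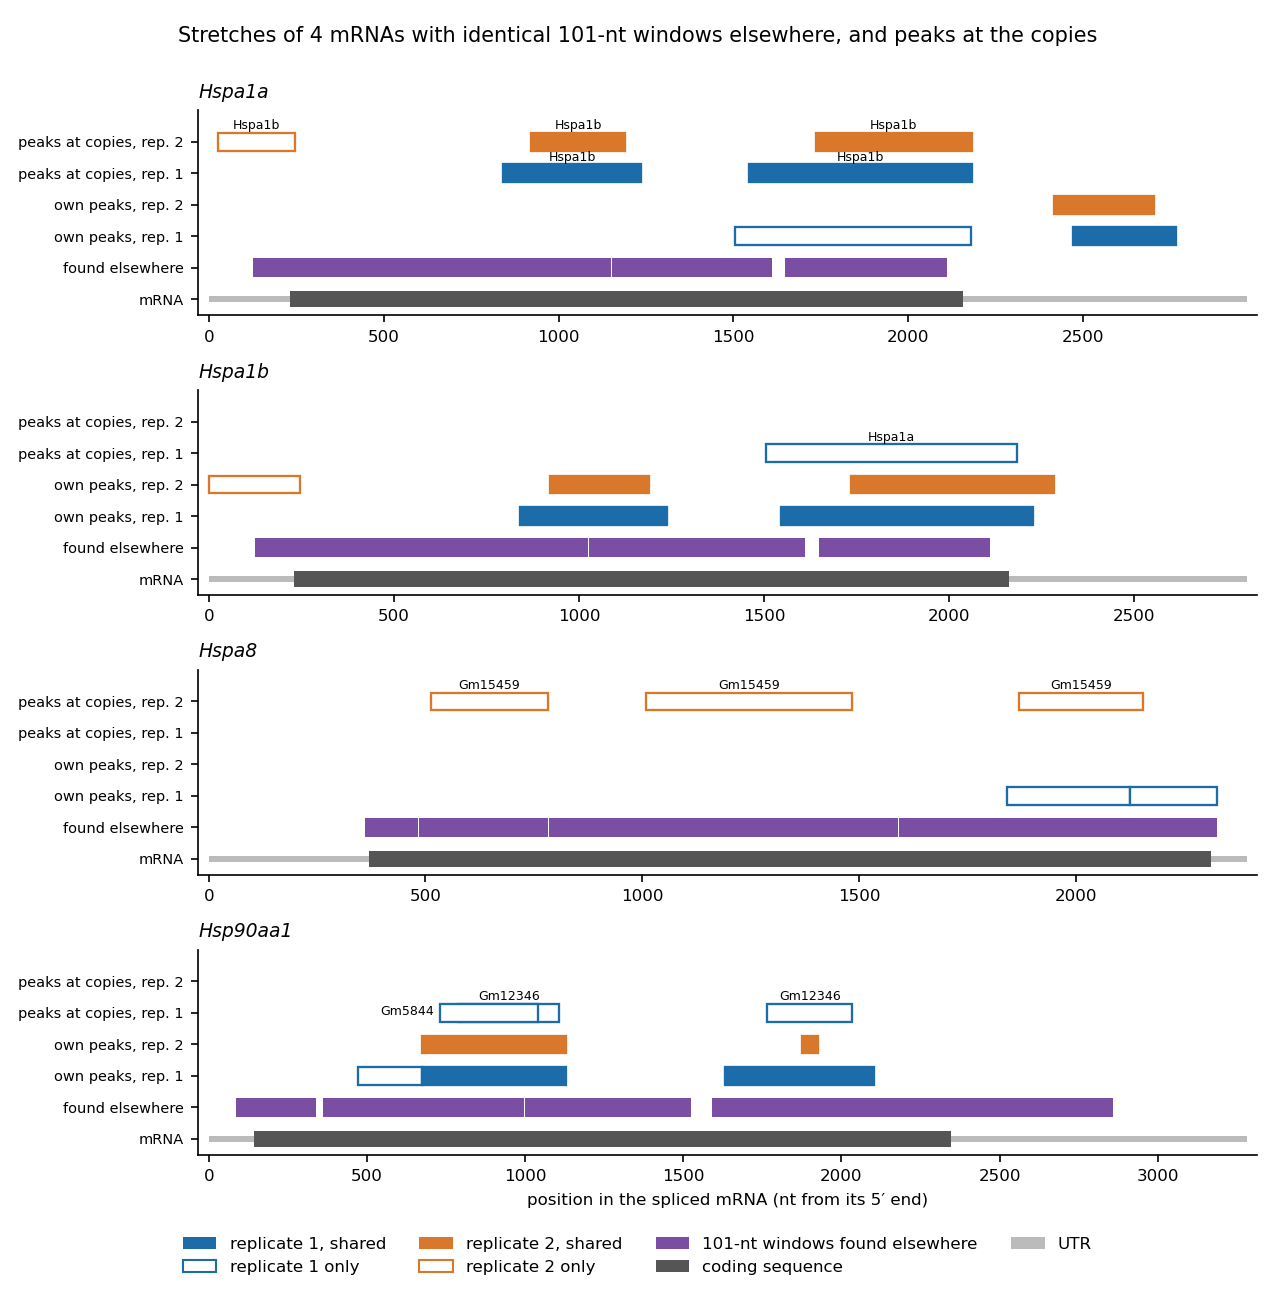
Positions along the 4 mRNAs (x axis, nt from the 5′ end) that lie in 101-nt windows found elsewhere in the genome (purple), the gene's own peaks, and peaks at places with such windows, drawn at the matching nt of the mRNA (blue replicate 1, orange replicate 2, open bars in 1 list; a peak over Hspa1l is left out). The 3 peaks at Gm15459 are in replicate 2 and the 3 at Gm12346 and Gm5844 in replicate 1, and all 6 are open.

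Hsp90aa1 encodes the stress-inducible cytosolic HSP90 alpha and Hsp90ab1 the constitutive HSP90 beta. Both had their strongest shared peak in the same part of the CDS, well away from either end. In Hsp90aa1 it had Enrichment 4.53 and 2.53 over exons 4 and 5 (chr12:110694004-110694770), and in Hsp90ab1 4.94 and 3.15 over exons 5 and 6 (chr17:45570258-45570865). When the coding sequences, 75.7% identical, were aligned, 100% of the 443 coding nt of the Hsp90ab1 interval lay opposite the Hsp90aa1 interval. Identity over that stretch was 78.8%. The exonic part of each interval was the 2 exons named, each covered whole, so the match is between exons and gives no finer position. The GGAC site closest to the midpoint of each interval is shown, since the 2 adenosines stand opposite each other in the alignment. They lay 138 nt (Hsp90aa1) and 132 nt (Hsp90ab1) after the midpoint of their interval.
Hsp90aa1, nt 1039 of the mRNA, minus strand of chr12:110694102-110694122: gccgatttGGACgagaaatcc
Hsp90ab1, nt 973 of the mRNA, minus strand of chr17:45570337-45570357: gcctatctGGACcagaaaccc
This was the only GGAC site in the interval of Hsp90aa1, and that of Hsp90ab1 held a second. Neither interval held GGACT.

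None of the windows of Hsp90ab1 are found elsewhere, Hsp90aa1 included, whereas 51.9% of the windows under the Hsp90aa1 peak are. Processed pseudogenes of Hsp90aa1 had peaks in replicate 1 alone. Gm12346, inside Ssh2 on chromosome 11, had 2 with Enrichment 6.19 and 5.72, and Gm5844 on chromosome 3 had 1 with 4.68. All 3 correspond to parts of the Hsp90aa1 mRNA that overlap its own peaks in both replicates, although the peak of replicate 2 at the second Gm12346 peak covers only 50 nt of the mRNA. The remaining peaks of these genes were weaker. Hsp90aa1 had a second shared peak towards the end of the CDS, at 2.02 and 1.28, and a peak of 1.60 in replicate 1 only. In Hsp90ab1 a peak in exon 9 had 1.58 in replicate 2 and 1.32 times that in replicate 1. Its last shared pair, 1.29 in replicate 1 and 1.96 in replicate 2, reached the stop codon only in replicate 2.

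Hspa5 encodes BiP, the HSP70 of the endoplasmic reticulum and a target of the unfolded protein response. It had a single peak, and in each list this peak had the highest Enrichment of the 10 genes, with 5.27 in replicate 1 and 4.08 in replicate 2. The values stood at percentiles 91.7 and 95.8 of their lists. Both peaks began at the first base of the last exon, chr2:34775551, and ended 13 nt apart, and the shared interval covered 563 nt of CDS, the stop codon and 275 nt of 3′ UTR. The last exon is 1997 nt long, the longest of the gene, where the internal exons have a median of 218 nt. No window of Hspa5 is found elsewhere.

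Hspa4l encodes the HSP110 protein Apg-1. It had the most shared peaks, 4, and the strongest of these lay on the stop codon, with Enrichment 4.07 and 3.12. A peak over exon 18 just before it had 1.76 and 1.65, and the 3′ UTR, 6714 nt long, held 2 far downstream, with 2.77 and 2.51 at 2524 nt and 1.78 and 1.48 at 4265 nt after the stop codon. The ratios of replicate 1 over replicate 2 were 1.07 to 1.30. A peak of 1.40 over exon 17 was in replicate 1 only. Dnajb1 had 2 further shared peaks besides that at its 5′ end, one in the middle exon with 4.21 and 2.90 and one of 770 nt across the stop codon and into the 3′ UTR with 3.08 and 2.70. In this gene 47.2% of the mRNA lay under peaks in both replicates, the highest share among the 10.

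Hsf1 encodes the factor that induces the stress-responsive members. It had a peak in exon 9 with Enrichment 1.74 and 1.88 and one at the end of the mRNA with 2.33 and 3.50. These were 2 of the 3 pairs among the 10 genes that were higher in replicate 2. The peak of replicate 2 at the end was 536 nt long and covered the stop codon, and that of replicate 1, of 317 nt, started after it, so that the shared interval lay in the 3′ UTR. Hsph1, apart from its 5′ peak, had peaks over short exons of the second part of its CDS. Shared were 2 of them, at 2.74 against 1.24 and 2.40 against 1.24, 2 of replicate 1 were not, at 2.60 and 1.58, and a peak of 1.65 at the stop codon was in replicate 2 only. The Hsph1 values of 1.24 stood at percentiles 1.49 and 1.32, the edge of what was listed. Several such peaks reached into introns, and 6 of the 28 peaks of replicate 1 and 4 of the 23 of replicate 2 had less than 50% of their bases in exons of the transcript used.

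The GGACT sites closest to the midpoint of the shared interval show the motif in the strongest shared interval of 5 mRNAs and in the interval across the stop codon of Dnajb1, written as above.
Hspa1b, nt 1976 of the mRNA, in the CDS, minus strand of chr17:34957253-34957273: tcctggctGGACTccaacacg
Hspa5, nt 2279 of the mRNA, in the 3′ UTR, plus strand of chr2:34776144-34776164: taaatactGGACTcaggaact
Hspa4l, nt 2761 of the mRNA, in the CDS, plus strand of chr3:40789375-40789395: atggaagtGGACTaagtgtca
Dnajb1, nt 1436 of the mRNA, in the 3′ UTR, plus strand of chr8:83611083-83611103: ctgcaactGGACTcttgccct
Hspa1a, nt 2536 of the mRNA, in the 3′ UTR, minus strand of chr17:34969611-34969631: ttgtgtttGGACTctcccctg
Hsf1, nt 2010 of the mRNA, in the 3′ UTR, plus strand of chr15:76500870-76500890: ccacacttGGACTgaccctgc
In Hspa4l the T of the motif is the first base of the stop codon. Searched on the transcript strand, GGACT occurred in 8 of the 21 shared intervals and the shorter GGAC, which includes it, in 17 of 21. Intervals differ in length, so windows of 101 nt around each midpoint were compared. GGACT was in 3 of the 21 windows (14.3%) and in 15.6% of the 21326 windows of all shared intervals placed on mRNAs, and GGAC in 13 (61.9%) and in 46.9%. A match is a description of the letters and does not show that the site is methylated.

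Levels between replicates followed the lists as a whole. In 18 of 21 matched pairs the Enrichment was higher in replicate 1, as it was in 77.9% of the 22457 pairs of all genes. The median log2 ratio of replicate 1 over replicate 2 was 0.41 for the chaperone pairs and 0.37 for all, with an SD of 0.48 among all pairs. Set on its percentile within its own list, 11 of the 21 (52.4%) were higher in replicate 1, and this share was not computed over all pairs. The median Enrichment of the peaks of the 10 genes was 2.56 in replicate 1, where all peaks had 2.88, and 2.28 in replicate 2, where all had 2.20. Peaks over exons of all protein-coding genes, the closer set to compare, had 2.71 and 2.17. Among the 10 genes, the peaks found in replicate 1 only had a median of 1.60 and those shared 2.77. Their ranges, 1.23 to 3.52 and 1.29 to 5.27, overlapped. In replicate 2 the 2 peaks found there only had 1.65 and 3.63, on either side of the median of 2.28 for those shared.

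**Figure D3:**
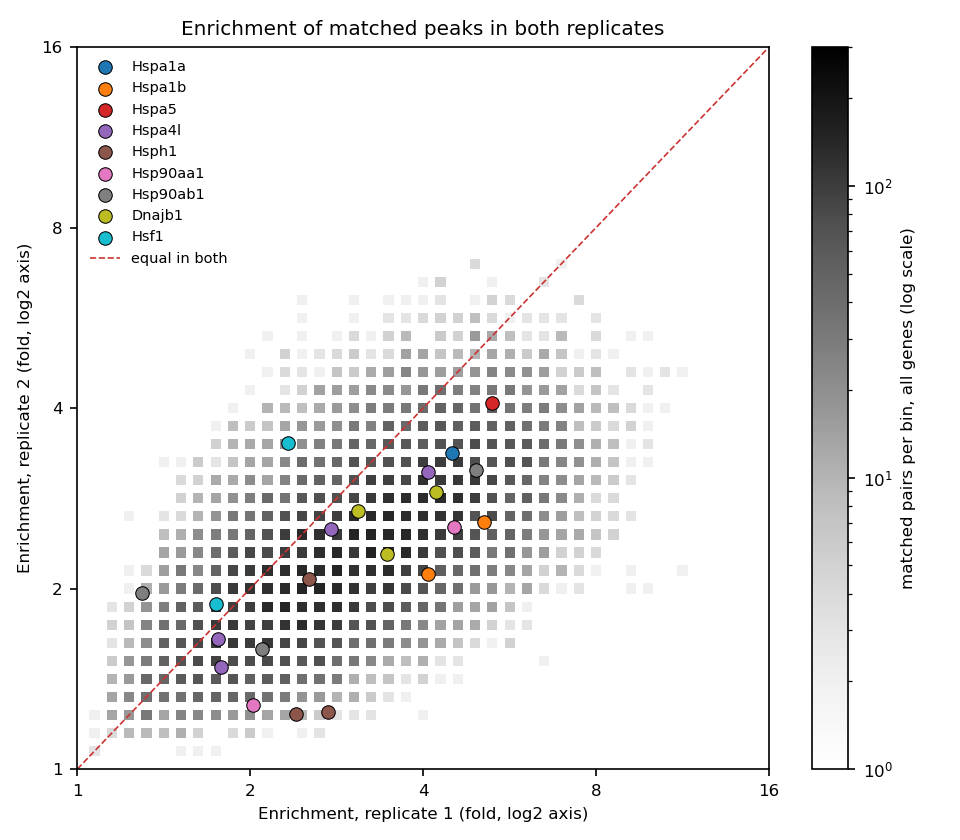
Enrichment (fold over input) of matched peaks in replicate 1 (x axis) and replicate 2 (y axis), both on log2 axes; grey squares count the pairs of all genes and each coloured point is a pair in one of the 9 genes with any. Of the 21 points, 18 lie below the dashed line of equal values, and the 3 above it are 2 of Hsf1 and 1 of Hsp90ab1.

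Among genes of 2 or more exons with a shared peak, the strongest interval lay in the longest exon or the longest internal exon in 74.0%, and in the last exon in 61.3%. Of the 7 such chaperone genes, 4 had it in one of these long exons (Hspa5, Hspa4l, Dnajb1 and Hsf1) and 3 in the last exon (Hspa5, Hspa4l and Hsf1). The exceptions were the first exon of Hsph1, of 369 nt, where exon 14 was the higher in replicate 1 (2.74 against 2.53), and exon 5 of Hsp90aa1 and exon 6 of Hsp90ab1, of 321 and 309 nt, which are still longer than the median internal exons of 191 and 207 nt. Dnajb1 was counted through exon 2, of 581 nt, which is its only internal exon and so its longest internal one by definition. Its longest exon is exon 3, of 2065 nt.

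A list of 71 other chaperone genes was set beside these, 70 of which have a coding transcript in the annotation (Cct6a does not). The list was chosen with earlier results of these data known. A shared peak was found in 53 of the 70 (75.7%, against 45.4% of all protein-coding genes, many of which are not expressed in brain). The groups differed in how many members had one. It was 7 of 7 chaperones of the endoplasmic reticulum, 15 of 16 co-chaperones, 14 of 16 J-domain genes, 8 of 9 HSP70 and HSP110 genes and both HSP90 genes, but 5 of 9 chaperonins, which form the folding chambers of cytosol and mitochondria, 2 of 8 small heat shock proteins and 0 of 3 other heat shock factors. Hsf2, Hsf4 and Hsf5 had no peak in either list.

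A shared interval with its midpoint in the 5′ UTR was found in 17 of the 53 genes (32.1%, against 21.7% of all genes with a shared peak). They were J-domain genes in 7 cases (Dnaja4, Dnajb2, Dnajb5, Dnajb6, Dnajb9, Dnajb11 and Dnajc7) and co-chaperones in 7 (Stip1, Ahsa1, Ptges3, Stub1, Hspbp1, Bag5 and Bag6), joined by Hyou1, Calr and Canx. The highest was Stip1, the Hop protein that links HSP70 to HSP90, with 4.73 in replicate 1 and 3.68 in replicate 2. The others ran from 1.17 up, and Hyou1, an HSP110 of the endoplasmic reticulum, had 2.66 and 2.69. In 8 of the 17 the 5′ UTR interval was the strongest of the gene by the lower value. Among these, Dnajb11 and Hspbp1 had no other shared interval, and no share over all genes was set beside the count. In Ahsa1 and Ptges3 the 5′ UTR interval had 2.85 and 1.73 in replicate 1. This was above the interval first by this rank, which had 2.36 and 1.66. When peaks under an Enrichment of 2 were dropped, 7 of 34 genes (20.6%) kept such an interval, against 13.5% of all genes.

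Of the genes without one, the 8 that ranked highest by the lower value of both replicates were led by Bag4, an HSP70 nucleotide exchange factor, with 7.23 and 5.39 in the 3′ UTR, and the small heat shock protein Hspb3, with 5.17 and 5.18 in the CDS. Bag3, which takes HSP70 clients to autophagy, had 6.00 and 3.43, and Sil1, the exchange factor of BiP, had 6.00 and 3.55, both in the CDS. Hspa13 had 5.46 and 3.41 and Hspa1l, the testis member of the HSP70 cluster with windows in common with Hspa1a, 4.56 and 3.38. Hspa12a and Pdia3 followed with 4.70 and 3.32 and with 3.35 and 3.28 in the 3′ UTR. Replicate 1 was the higher in 7 of these 8, all but Hspb3, and in 77.9% of the matched pairs of all genes. Of the 17 5′ UTR intervals named above, 9 were higher in replicate 1.

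**Figure D4:**
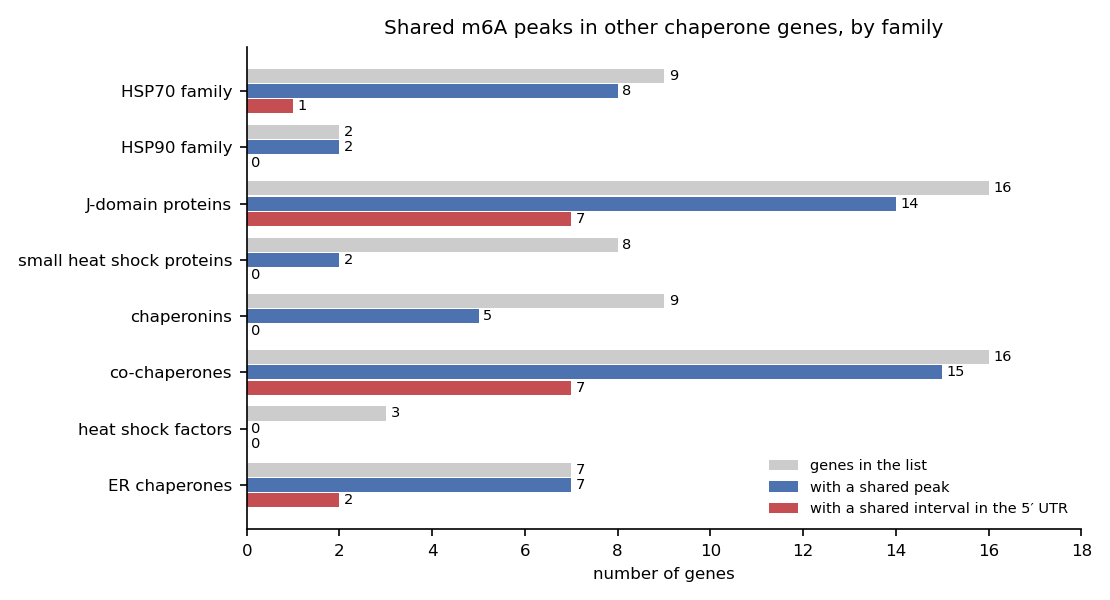
Number of genes (x axis) in each family of the other chaperone list, those with a shared peak and those with a shared interval whose midpoint lies in the 5′ UTR. J-domain genes and co-chaperones hold 14 of the 17 genes with a 5′ UTR interval, and the 3 other heat shock factors have no shared peak.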

How the data were processed

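Per the methods, reads (101 bp per the labels) were trimmed and aligned to mm10 with TopHat (2.0.9 in the submitters' processing notes, another version in the methods), uniquely mapped reads were kept, and MACS2 called peaks in each m6A IP against its input. The authors deposited 1 peak list per replicate with start, end and Enrichment, a fold (linear ratio) over input. No separate input values were used here. Coordinates were read as 1-based; no peak passed a chromosome end of GRCm38. Genes were taken from GENCODE M21 by symbol and peaks assigned to every gene whose exon they touch, without strand. Overlaps were checked against bedtools 2.31.1 and placement on simulated peaks. Windows of 101 nt were searched for exact matches on both strands of the genome. Alignments used Biopython 1.88. Genes of the 10 and of the other list were chosen with earlier results of these data known. Named from the other list are the genes with a 5′ UTR interval and the 8 with the highest lower value of both replicates beyond them. No test was run, as the 2 m6A IP lists form 1 group with no second condition. Alternatives changed the overlap, the minimum Enrichment, merging, the transcript, the placement and the replicate used.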

Additional observations from a re-analysis of the deposited data

How the results depend on the processing

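The number of genes with a shared peak stayed at 9 under every overlap, minimum and merging tried, and was 9 to 10 with peaks of a single replicate. The number with an interval near the stop codon was 4 within 200 nt, 2 when midpoints of paired peaks had to lie within 100 bp, 1 in a window of 100 nt, 6 in one of 400 nt and 4 to 6 with peaks of a single replicate. The number with a 5′ UTR interval was 1, and 2 when any base counted, and with peaks of a single replicate it was 1 to 2. A CDS interval was found in 8 genes, in 6 at a minimum Enrichment of 2 and in 8 to 10 with a single replicate. For the 3′ UTR it was 4 genes, 3 when midpoints had to lie within 100 bp and 6 when any base counted. Single replicates gave 4 to 5. Among the other chaperone genes, a minimum Enrichment of 2 lowered those with a shared peak from 53 to 34 and those with a 5′ UTR interval from 17 to 7, and single lists gave 20 to 26 of the latter. Shares over all genes under another setting are given above for the stop codon windows and for 5′ UTR intervals at a minimum Enrichment of 2. The other counts here have none beside them, so they cannot be set against the shares of the main setting. The share of pairs higher in replicate 1 was 85.7% and 52.4% by rank, and no share by rank was computed over all pairs. In a setting added after the data were seen, leaving out the 4 genes with windows found elsewhere, 6 of 6 genes had a shared peak. The cause of these moves was not tested. No paired analysis was possible because the peak lists are of the m6A IP samples alone and each value is already relative to its own input. Depth is unknown, so absent peaks show no absence of m6A, and no interval was computed from the 2 values per peak.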

Other observations

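Peaks over processed pseudogenes were counted after the copies of Hspa8 and Hsp90aa1 had been seen, over those peaks that touch no exon of a gene that is not a pseudogene. Replicate 1 had 129, of which 46 (35.7%) were shared, against 67.8% of its 31979 peaks over exons of protein-coding genes. Replicate 2 had 62, of which 45 (72.6%) were shared, against 76.8% of 28259. Their median Enrichment was 3.80 and 3.32, where peaks over protein-coding exons had 2.71 and 2.17.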
